A study of Homo sapiens with 22 samples.

Results

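The 38 genes described here code for proteins that set the contact, shape and surroundings of a cell: cadherins and vimentin, transcription factors of the epithelial-mesenchymal transition (EMT), extracellular matrix glycoproteins, matrix cross-linking enzymes, collagens, actin-associated proteins, transforming growth factor beta (TGF-beta) ligands, target genes of YAP and its DNA-binding partners, the TEAD factors, and the hyaluronan receptor CD44. They were taken by symbol from a list of names that was chosen with earlier results of these data known. Shares and medians set beside those of all genes therefore only describe the list. CCN1 and CCN2 are the current symbols of CYR61 and CTGF. Of the 38, 36 had a line among the 17391 genes of the knockout table, 38 among 59401 in the SMYD3 siRNA table, and 37 among 57316 in each of the other two tables. VCAN and COL3A1 were not analysed in the knockout table, and TGFB1 was not analysed in the antisense and UHRF1 tables.

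HN-6 is a human cell line from a squamous carcinoma of the head and neck, and its RNA was sequenced after poly(A) selection with a strand-marking kit. All 22 libraries, controls included, came from cells given human interferon-beta (IFN-β) at 1000 U/ml for the last 24 h, so every difference below is between cells that had received interferon, and no untreated baseline was part of the comparisons. SMYD3 methylates lysines on histones and other proteins, and 3 tables compare cells with less of it: the knockout clone 5-3 against parental HN-6 (3 libraries each), the siRNA si1SMYD3 against a control siRNA, siNC (3 each, 72 h), and an antisense oligonucleotide, ASO 081, against PBS, the buffer alone (2 each, 72 h). The fourth table compares siUHRF1 with its own siNC libraries (3 each, 72 h); UHRF1 brings the maintenance methyltransferase to newly copied DNA. The knockout line is 1 clone, so what the knockout did and what sets that clone apart cannot be told apart, and each knockdown used 1 reagent. The series calls its replicates biological without saying how they were separated, so the p-values measure the spread between these libraries.

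Total reads in genes were 24783605 to 47702859 per library in the knockout table (reads recovered from the deposited values), 32441991 to 54121262 in the SMYD3 siRNA table, 30792923 to 32045158 in the ASO table and 57588142 to 62921144 in the UHRF1 table. SMYD3 was lower in every depleted library than in its controls: the log2 fold change was -1.79 in the clone, -2.41 with the siRNA and -2.52 with the ASO, and it was -0.57 with the UHRF1 siRNA. UHRF1 changed by -4.85 with its own siRNA, and by -1.68 with the SMYD3 siRNA, 0.44 in the clone and 0.36 with the ASO. Values are normalized counts (as deposited) in the knockout table and counts per 1000000 reads in genes (CPM) in the others. A gene was called where the Benjamini-Hochberg adjusted p, over all genes tested, was under 0.05, with limma for the knockout table and edgeR's quasi-likelihood test for the count tables. Fold changes are log2, depleted over control, and ± gives the standard error (SE) from the fit.

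Epithelial cells hold to their neighbours through E-cadherin and P-cadherin, and in EMT the SNAIL, ZEB and TWIST factors repress E-cadherin while N-cadherin, vimentin and matrix genes are expressed. YAP and its relative TAZ enter the nucleus when Hippo kinases are inactive or when cells are spread and under tension. There they bind TEAD factors and switch on genes such as CCN1, CCN2, ANKRD1 and AMOTL2. TGF-beta, released from latent stores in the matrix, signals through SMAD proteins and drives many of the same collagen, matrix and actin genes.

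RefSeq promoter sequences (GRCh38.p14; the 250 bases before each start were searched) matched 27 of the 38 genes, with 40 promoters. The letters GGAATG, the core bound by TEAD factors, were found on either strand before 9 of these genes: ACTA2, AMOTL2, ANKRD1, AXL, CCN2, COL12A1, SPARC, TGFB2 and THBS1. They stood in 22.5% of the 40 promoters and in 11.9% of all 35116 promoters of the same length. CAGGTG, the E-box bound by SNAIL and ZEB factors, stood in 17.5% of both, and the CArG box of serum response factor in 2.5% and 1.16%. Neither 6-letter motif contains the other. A match is a description of letters, and binding was not measured. The 6 promoters below were chosen among those with GGAATG, from YAP/TEAD, matrix and TGF-beta genes with some of the larger changes in what follows. They do not stand for all strongly changed genes. FN1, TNC and COL4A2, with large changes in the clone, had no copy, and neither did another promoter of AMOTL2. Capitals mark GGAATG, or CATTCC where the motif is on the other strand.
CCN2, chr6:131951373-131951622, minus strand: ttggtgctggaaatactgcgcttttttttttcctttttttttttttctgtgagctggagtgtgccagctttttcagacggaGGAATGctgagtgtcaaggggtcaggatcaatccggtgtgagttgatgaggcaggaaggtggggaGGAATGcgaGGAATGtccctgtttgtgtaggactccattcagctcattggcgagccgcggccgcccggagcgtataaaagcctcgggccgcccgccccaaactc
ANKRD1, chr10:90921088-90921337, minus strand: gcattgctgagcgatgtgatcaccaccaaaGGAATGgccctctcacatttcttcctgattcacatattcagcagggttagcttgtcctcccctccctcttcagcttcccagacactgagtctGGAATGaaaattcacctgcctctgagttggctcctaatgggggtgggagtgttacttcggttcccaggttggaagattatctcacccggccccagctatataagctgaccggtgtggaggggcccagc
AMOTL2, chr3:134374448-134374697, minus strand: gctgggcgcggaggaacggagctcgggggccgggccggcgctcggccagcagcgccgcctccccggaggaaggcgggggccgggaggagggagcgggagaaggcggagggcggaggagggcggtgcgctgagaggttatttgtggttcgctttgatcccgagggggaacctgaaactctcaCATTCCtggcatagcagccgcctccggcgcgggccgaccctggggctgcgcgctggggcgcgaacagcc
THBS1, chr15:39580829-39581078, plus strand: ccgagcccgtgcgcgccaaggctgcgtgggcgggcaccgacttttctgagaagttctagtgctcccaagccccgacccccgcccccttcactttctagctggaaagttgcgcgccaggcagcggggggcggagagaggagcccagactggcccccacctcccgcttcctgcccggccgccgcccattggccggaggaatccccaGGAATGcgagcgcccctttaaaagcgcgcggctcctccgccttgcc
COL12A1, chr6:75206054-75206303, minus strand: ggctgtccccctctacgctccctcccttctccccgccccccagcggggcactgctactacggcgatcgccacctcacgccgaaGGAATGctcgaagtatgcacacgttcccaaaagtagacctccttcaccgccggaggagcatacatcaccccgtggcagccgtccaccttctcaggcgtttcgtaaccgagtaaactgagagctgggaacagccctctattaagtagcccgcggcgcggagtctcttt
TGFB2, chr1:218345086-218345335, plus strand: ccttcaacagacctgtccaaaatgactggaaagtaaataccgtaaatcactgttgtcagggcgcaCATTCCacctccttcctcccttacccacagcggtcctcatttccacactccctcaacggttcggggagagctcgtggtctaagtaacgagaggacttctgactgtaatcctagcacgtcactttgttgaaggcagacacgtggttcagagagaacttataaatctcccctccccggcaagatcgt
CCN2 had 3 copies, at 90 to 95, 99 to 104 and 164 to 169 bases before its start, and ANKRD1 had 2. The other 4 promoters shown had 1 copy each. The genes with the motif did not move as a block: in the clone ANKRD1 and THBS1 were called higher, and CCN2 and COL12A1 lower.

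How strongly the 38 genes were expressed was compared between genes only per length, as CPM per kilobase of exon. The gene length deposited in the ASO table was used for all 4 control groups. In the siNC libraries of the UHRF1 table, 22 of 37 genes stood above 10 CPM per kilobase and 6 below 1. CCN1, a secreted matricellular protein, was first in all 4 control groups, at 232 CPM per kilobase in parental cells, 286 in the siNC libraries of the SMYD3 table, 418 in the PBS libraries and 1046 in the siNC libraries of the UHRF1 table. ZEB2 stood near the bottom, between 0.0687 and 0.121. Some genes differed widely between control groups: from the siNC libraries of the SMYD3 table to those of the UHRF1 table, vimentin went from 4.95 to 50.8 CPM per kilobase and THBS1 from 25.4 to 475. The tables were deposited separately, so levels set across them are side by side and were not tested.

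**Figure D1:**
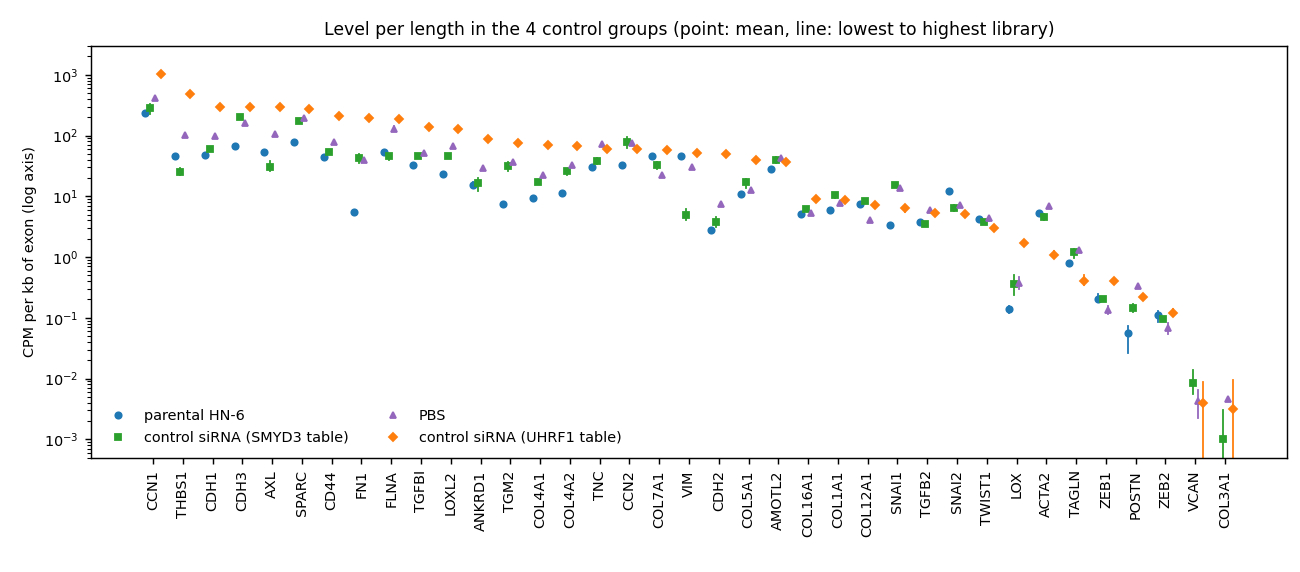
Level of each gene in the 4 control groups, as CPM per kilobase of exon on a log axis; points are group means and lines run from the lowest to the highest library (a line that reaches the axis includes a library with no read). CCN1 is highest in each group, and VCAN and COL3A1 are lowest where they were measured.

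In the knockout clone, 31 of the 35 genes tested were called, 21 higher and 10 lower. This is 88.6% of them, beside 84.7% of all 16941 genes tested there, so the share called was near the background. The direction was less even: the median log2 fold change of the 35 was 0.71, beside -0.02 over all genes, and all genes split into 42.1% higher and 42.6% lower. Of the 35, 18 were called with a log2 change of at least 1 in size, beside 36.5% of all genes. Groups did not overlap in 30 of the 35, beside 85.8% of all genes. With upper quartile scaling of the recovered reads, 5385 of all genes were higher and 9117 lower in place of 7134 and 7209, and the 35 split into 19 and 13. Mitochondrial genes held 14.9% to 15.7% of the reads in parental libraries and 4.82% to 4.88% in clone libraries; in the SMYD3 siRNA table they held 10.2% in siNC replicate 3 and 5.73% to 7.35% in the other libraries. The part of this in the changes was not tested. In bulk RNA, fewer cells of a type and less RNA per cell cannot be told apart, here and in all that follows.

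In the SMYD3 siRNA table all 38 genes passed the filter on low counts, but VCAN and COL3A1 did so through the depleted libraries alone, where they are high, and they are described below without a test. Of the other 36, 20 were higher, 4 lower and 12 not called. That is 66.7% called, beside 48.6% of 18967 genes (24.2% higher, 24.4% lower), with a median of 0.33 beside -0.02. Absolute changes of 1 or more were called for 5, beside 7.83% of all genes, and groups did not overlap in 22, beside 57.3%. With the ASO, 6 were higher, 6 lower and 23 not called among 35 tested, which is 34.3% beside 21.7% of 18233 genes (11.3% higher, 10.3% lower). No gene of the 35 tested reached an absolute change of 1 with the ASO, beside 1.55% of all genes, and the median was -0.08. Groups did not overlap in 23 of the 35, beside 62% of all genes. The UHRF1 siRNA called 15 higher, 15 lower and 5 neither among 35 tested, which is 85.7% beside 64.7% of 18349 genes (32% higher, 32.7% lower). Its median was -0.01, with 7 absolute changes of 1 or more beside 17.8% of all genes. Groups did not overlap in 30 of the 35, beside 68.4%.

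**Figure D2:**
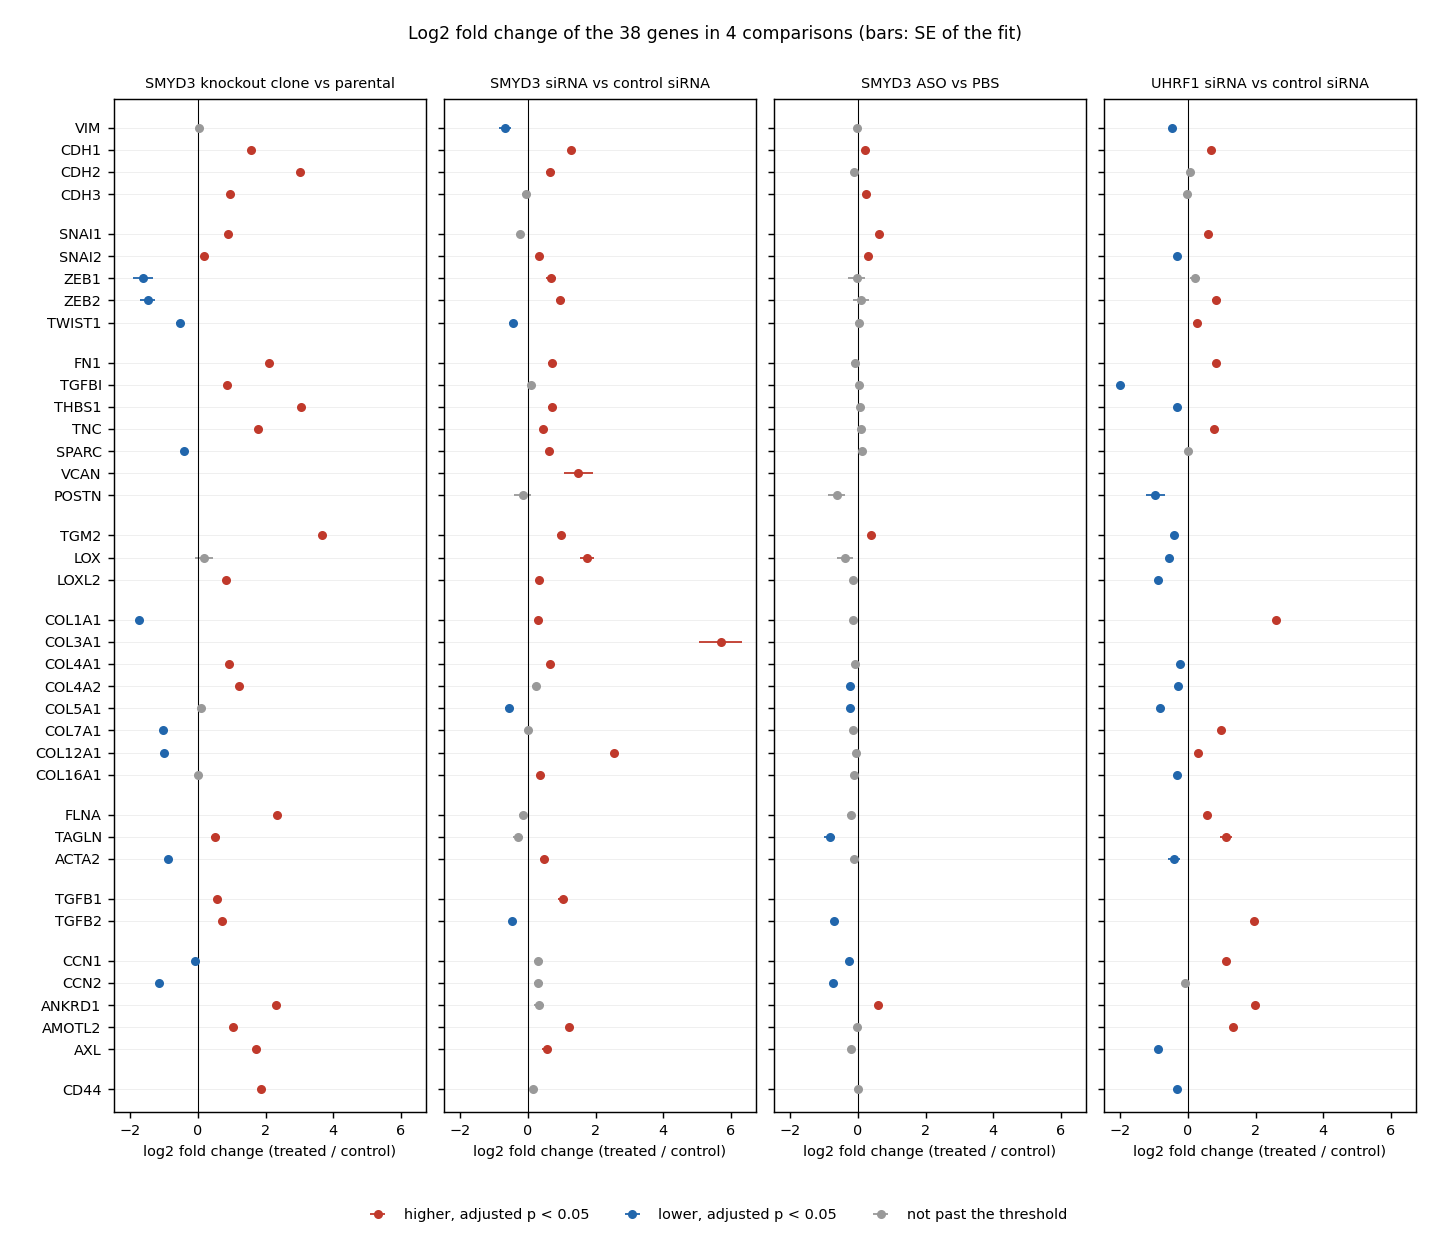
Log2 fold change (horizontal axis, the same scale in each panel) of each gene in the 4 comparisons, with the SE of the fit as bars; red is called higher, blue called lower and grey not past the threshold. The clone and the UHRF1 siRNA spread widely in both directions, the SMYD3 siRNA lies mostly to the right, and the ASO stays within 1 of zero. VCAN and COL3A1 passed the filter of the SMYD3 siRNA table through the depleted group alone, so their red points there are not read as calls.

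Of the 3 cadherins and vimentin, 3 were called higher and none lower in the clone, 2 and 1 with si1SMYD3, 2 and none with the ASO, and 1 and 1 with siUHRF1. Both ASO calls were lost without PBS replicate 1. E-cadherin, CDH1, was called in the same direction, higher, in all 4 comparisons. It was the 1 such gene of the 34 tested in all 4. That is 2.94% beside 2.67% of all genes, so the share was near the background. In the clone it measured 22446, 23878 and 22513 normalized counts against 7703, 7794 and 7716 in parental cells, a change of 1.57 ± 0.03 (SE; adjusted p = 3.6e-15). The siRNA libraries read 719.6, 779 and 752 CPM against 367, 341 and 304 with siNC, a change of 1.28 ± 0.09 (SE; adjusted p = 7.67e-08). Every depleted library lay above every control in both. With siUHRF1 the change was 0.69 ± 0.05 (SE; adjusted p = 8.55e-18), and with the ASO it was 0.21 ± 0.07 (SE; adjusted p = 0.0397). The ASO call was lost without PBS replicate 1 (adjusted p = 0.329) or ASO replicate 2 (adjusted p = 0.102).

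N-cadherin, CDH2, the cadherin gained in EMT, had the largest change of this group. It measured 2596, 2739 and 2746 normalized counts in the clone and 301, 367 and 328 in parental cells, a change of 3.02 ± 0.07 (SE; adjusted p = 6.07e-15). It also rose with the siRNA, from 19.7, 14.8 and 13.2 CPM to 20.9, 25.1 and 22.8, a change of 0.66 ± 0.13 (SE; adjusted p = 0.000809). The clone thus held more of both E- and N-cadherin RNA, in groups far apart. P-cadherin, CDH3, of basal epithelium, was called higher in the clone (0.95 ± 0.03) and with the ASO (0.23 ± 0.06; adjusted p = 0.132 without PBS replicate 1). Vimentin, the intermediate filament of mesenchymal cells, was not called in the clone (0.02 ± 0.04), and fell with the SMYD3 siRNA (-0.68 ± 0.17) and the UHRF1 siRNA (-0.48 ± 0.05). With upper quartile scaling of the recovered reads, vimentin was called lower in the clone, at -0.254.

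The EMT transcription factors did not share a direction in the clone or with either siRNA: of 5, 2 were called higher and 3 lower in the clone, 3 and 1 with each siRNA, and 2 and none with the ASO. In the clone SNAI1 (0.90 ± 0.10) and SNAI2 (0.18 ± 0.05) were called higher, and ZEB1, ZEB2 and TWIST1 lower. ZEB1 measured 12.9, 10.4 and 21.6 normalized counts in the clone and 55.3, 42.2 and 42.3 in parental cells, a change of -1.63 ± 0.28 (SE; adjusted p = 7.98e-05). ZEB2 measured 24.8, 29.02 and 21.6 and 79.1, 56.3 and 83.8, a change of -1.49 ± 0.21 (SE; adjusted p = 1.08e-05). Both repressors were scarce in parental cells and scarcer in the clone, with no overlap. SNAI2 turned to -0.0967 with upper quartile scaling, with an adjusted p of 0.0878.

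With the SMYD3 siRNA the ZEB pair moved the other way. ZEB2 rose from 2.23, 2.4 and 2.09 CPM to 4.66, 3.66 and 3.61, a change of 0.96 ± 0.14 (SE; adjusted p = 5.48e-05), and ZEB1 changed by 0.68 ± 0.15 (SE; adjusted p = 0.00192). The difference between the clone's effect and the siRNA's was -1.58 ± 0.16 (SE; adjusted p = 4.51e-08) for ZEB2 and -1.19 ± 0.15 (SE; adjusted p = 6.34e-07) for ZEB1. Both differences were fitted by limma on log2(CPM + 1), which understates them for genes this rare. They are therefore smaller than the separate effects imply. SNAI2 rose by 0.33 ± 0.10 with the siRNA and TWIST1 fell by 0.44 ± 0.13, a call lost without si1SMYD3 replicate 1 (adjusted p = 0.0582). SNAI1, the immediate repressor of E-cadherin, had 36.8 and 31.05 CPM with the ASO and 22.4 and 24.0 with PBS, a change of 0.61 ± 0.08 (SE; adjusted p = 0.000267). It rose by 0.61 ± 0.09 with siUHRF1 and stood at -0.23 ± 0.10 with the SMYD3 siRNA, where it was not called. SNAI1 and CDH1 were thus called higher together in the clone, with the ASO and with siUHRF1. With siUHRF1, ZEB2 rose (0.84 ± 0.14) and SNAI2 fell (-0.31 ± 0.08), while the call of TWIST1 (0.26 ± 0.11) was lost under 6 alternatives.

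Among the matrix glycoproteins, 4 of 5 tested rose in the clone, 4 of the 6 other than VCAN with the SMYD3 siRNA, none of 6 with the ASO, and 2 of 6 with siUHRF1, where 3 fell. Thrombospondin 1, THBS1, which activates latent TGF-beta, led the group. The clone held 88961, 94567 and 87937 normalized counts of it and the parental line 10750.4, 11293 and 10611, a change of 3.06 ± 0.03 (SE; adjusted p = 1.16e-17). Fibronectin, FN1, the scaffold on which other matrix proteins assemble, measured 10331, 11175 and 10358 against 2496, 2444 and 2544, a change of 2.09 ± 0.04 (SE; adjusted p = 1.74e-15). Tenascin C, TNC, measured 24734, 26856 and 25568 against 7877, 7402 and 7396, a change of 1.77 ± 0.04 (SE; adjusted p = 4.08e-15). In all 3 the lowest clone library was above the highest parental one. The median change of all genes on chromosome 15, where THBS1 lies, was -0.25 in the clone, and on chromosome 9, which carries TNC and COL5A1, it was 0.50.

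FN1 and TNC also rose with both siRNAs. FN1 changed by 0.72 ± 0.12 with si1SMYD3 and 0.83 ± 0.05 with siUHRF1, and TNC by 0.45 ± 0.10 and 0.78 ± 0.05. THBS1 rose with si1SMYD3 (0.70 ± 0.11) and fell with siUHRF1 (-0.32 ± 0.05), a difference of 1.02 ± 0.13 (SE; adjusted p = 2.81e-07). TGFBI, a TGF-beta induced matrix adaptor, split more widely. It fell with siUHRF1 from 1114, 1110.5 and 992 CPM to 262, 253 and 251, a change of -2.00 ± 0.05 (SE; adjusted p = 1.49e-36), and rose in the clone by 0.86 ± 0.03. The UHRF1-depleted libraries held about the same low level and none came near the controls. SPARC, a collagen-binding matricellular protein, rose with the SMYD3 siRNA (0.61 ± 0.08) and fell in the clone (-0.41 ± 0.03).

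Versican and periostin were close to the limit of detection. VCAN, a large proteoglycan, had 0.237, 0.279 and 0.317 CPM with the SMYD3 siRNA and 0.0881, 0.185 and 0.0739 with siNC, from 35 and 14 reads. VCAN passed the filter there through the depleted libraries alone, so no interval or test is given. No siNC library reached the count minimum, and VCAN failed the filter in the ASO and UHRF1 tables. POSTN, an integrin ligand, had 27 reads in the 3 parental libraries and 0 in the 3 clone libraries. Taking 3 reads for the whole clone group as the most a count of 0 allows, that is at least 10.4-fold lower. It failed the filter of the knockout table, and it fell with siUHRF1, a change of -0.96 ± 0.29 (SE; adjusted p = 0.00352).

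The enzymes that cross-link matrix moved in opposite directions with the siRNAs. All 3 rose with si1SMYD3 and all 3 fell with siUHRF1. Transglutaminase 2, TGM2, which joins matrix proteins through glutamine and lysine side chains, had the largest change of the 35 genes tested in the clone. It measured 19760.3, 18986 and 19698 normalized counts there and 1586, 1592 and 1456 in parental cells, a change of 3.66 ± 0.04 (SE; adjusted p = 1.16e-17). The clone libraries agreed closely with each other and lay far above the parental ones. The change was 0.98 ± 0.11 (SE; adjusted p = 5.89e-06) with si1SMYD3, 0.37 ± 0.08 (SE; adjusted p = 0.00797) with the ASO and -0.41 ± 0.05 (SE; adjusted p = 1.92e-10) with siUHRF1. TGM2 was therefore called higher in all 3 SMYD3 comparisons, although the ASO call had an adjusted p of 0.103 with DESeq2.

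Lysyl oxidase, LOX, which oxidises collagen and elastin lysines, had 5.51, 6.37 and 5.07 CPM with si1SMYD3 and 2.62, 1.73 and 1.2 with siNC, a change of 1.75 ± 0.21 (SE; adjusted p = 2.32e-05). The gene was rare in both groups, and the groups did not overlap. It was not called in the clone (0.18 ± 0.26) or with the ASO (-0.39 ± 0.24), and it fell with siUHRF1 (-0.56 ± 0.10). The related LOXL2 was called higher in the clone (0.84 ± 0.04) and with si1SMYD3 (0.33 ± 0.10), and lower with siUHRF1 (-0.88 ± 0.05). The siRNA call of LOXL2 was lost without siNC replicate 3 (adjusted p = 0.0797) or si1SMYD3 replicate 2 (adjusted p = 0.0764). The difference between the si1SMYD3 and siUHRF1 effects was 1.39 ± 0.13 (SE; adjusted p = 9.41e-10) for TGM2, 2.31 ± 0.23 (SE; adjusted p = 1.67e-09) for LOX and 1.20 ± 0.11 (SE; adjusted p = 4.96e-10) for LOXL2.

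The collagens did not move as a family: 2 were called higher and 3 lower of 7 tested in the clone, 4 and 1 of the 7 other than COL3A1 with si1SMYD3, none and 2 of 7 with the ASO, and 3 and 4 of 7 with siUHRF1. Without PBS replicate 2 the ASO called none. COL1A1, the main chain of fibrillar type I collagen, fell in the clone and rose with siUHRF1. The clone libraries read 442, 427 and 483 normalized counts and the parental ones 1559.6, 1459 and 1526, a change of -1.75 ± 0.06 (SE; adjusted p = 6.49e-13). With siUHRF1 it read 536, 474 and 465 CPM against 83.9, 85.0 and 83.7, a change of 2.62 ± 0.05 (SE; adjusted p = 2.41e-40). Those groups were far apart, in opposite directions. With si1SMYD3 COL1A1 changed by 0.29 ± 0.10 (SE; adjusted p = 0.0232), a call lost in 4 of the 6 fits that leave out 1 library.

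COL12A1, a collagen that decorates type I fibrils, had its largest rise with the SMYD3 siRNA. It went from 103, 96.9 and 91.3 CPM to 531, 549 and 480.3, a change of 2.55 ± 0.09 (SE; adjusted p = 2.9e-10). In the clone it fell from 2550.4, 2149 and 2509 normalized counts to 1166, 1287 and 1134, a change of -1.004 ± 0.07 (SE; adjusted p = 2.36e-09). With the ASO its libraries lay just below those with PBS and the change was -0.07 ± 0.07 (SE; adjusted p = 0.543). With siUHRF1 it rose by 0.30 ± 0.05. The siRNA effect exceeded the ASO effect by 2.62 ± 0.11 (SE; adjusted p = 8.13e-16) and the siUHRF1 effect by 2.25 ± 0.09 (SE; adjusted p = 3.1e-17), and the knockout effect minus the siRNA effect was -3.59 ± 0.10 (SE; adjusted p = 4.67e-15).

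COL3A1, the fibrillar collagen of soft tissue, was almost absent. It had 1 read in the 3 siNC libraries of the SMYD3 table and 62 reads in the 3 si1SMYD3 libraries, or 0, 0 and 0.0185 CPM against 0.501, 0.609 and 0.401. Only the depleted libraries, where COL3A1 is high, carried it past the filter there, so no interval or test is given. It had 2 reads with PBS and 3 with the ASO, and 4 with siNC and 6 with siUHRF1, and failed the filter on low counts in both of those tables. COL5A1, which nucleates type I fibrils, fell with si1SMYD3 (-0.57 ± 0.12), the ASO (-0.24 ± 0.06; adjusted p = 0.194 without PBS replicate 2) and siUHRF1 (-0.81 ± 0.05). It was not called in the clone (0.09 ± 0.05), where upper quartile scaling turned it to -0.193.

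The basement membrane chains COL4A1 and COL4A2, whose start sites are 127 bases apart on opposite strands of chromosome 13, moved together in the clone. COL4A2 rose from 5898, 5393 and 5749 normalized counts to 13067, 13202 and 13431, a change of 1.22 ± 0.04 (SE; adjusted p = 1.57e-13), and COL4A1 by 0.91 ± 0.04. The median change of all 261 genes tested on that chromosome was -0.39. With siUHRF1 both fell (-0.22 ± 0.05 and -0.29 ± 0.05), and with si1SMYD3 COL4A1 rose (0.64 ± 0.09) while COL4A2 was not called (0.23 ± 0.11). COL4A2 was called lower with the ASO (-0.23 ± 0.07), a call lost without PBS replicate 2 (adjusted p = 0.313) or ASO replicate 1 (adjusted p = 0.0594). COL7A1, the anchoring fibril of squamous epithelium, measured 6576, 6398 and 6963 normalized counts in the clone and 13051, 13163 and 14529 in parental cells, a change of -1.03 ± 0.04 (SE; adjusted p = 7.82e-12). It rose with siUHRF1 by 0.98 ± 0.05. COL16A1, a fibril-associated collagen, rose with si1SMYD3 (0.36 ± 0.08) and fell with siUHRF1 (-0.31 ± 0.05).

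**Figure D3:**
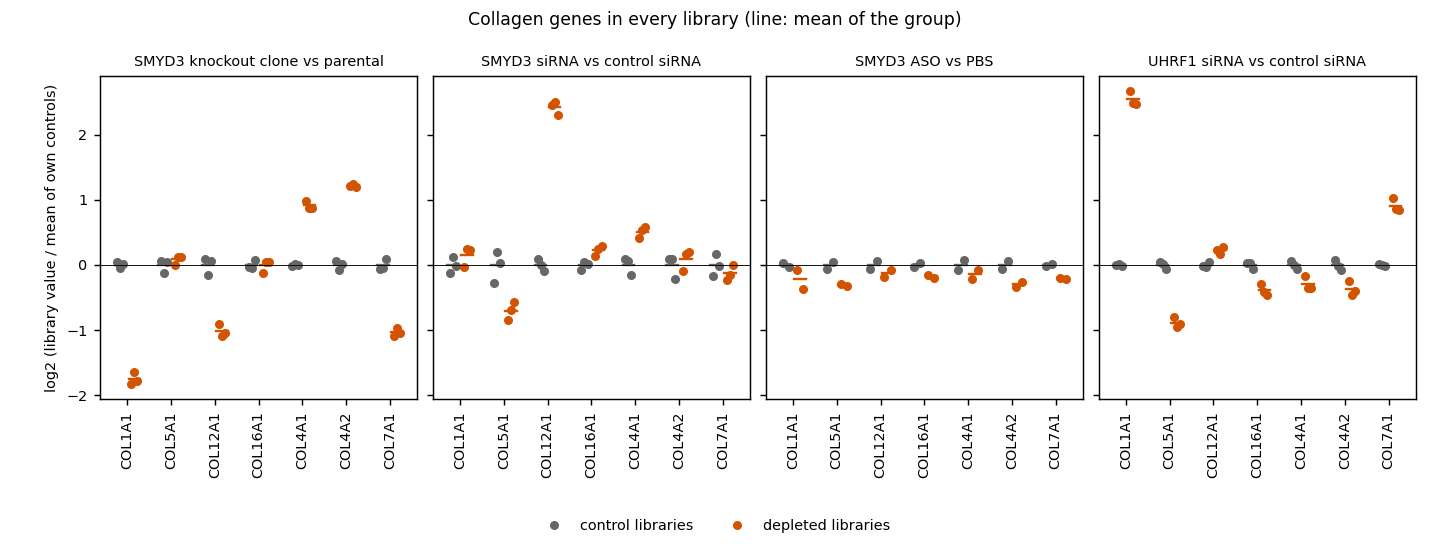
Value of each library divided by the mean of its own controls, on a log2 axis, for 7 collagen genes in the 4 comparisons; grey points are control libraries, orange points depleted libraries, and short lines group means. COL1A1 and COL7A1 lie below the controls in the clone and above them with siUHRF1, and COL12A1 stands out with the SMYD3 siRNA. COL3A1 is left out because its groups held few reads or none.

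Of the 3 actin-associated genes, 2 were called higher and 1 lower in the clone and with siUHRF1, 1 higher with si1SMYD3 and 1 lower with the ASO, and filamin A had the largest change. FLNA, which cross-links actin and ties it to integrins, measured 73239, 74333 and 75067 normalized counts in the clone and 14953, 14199 and 14872 in parental cells, a change of 2.34 ± 0.03 (SE; adjusted p = 3.27e-17). It rose with siUHRF1 by 0.57 ± 0.05 and was not called with si1SMYD3 (-0.15 ± 0.13) or the ASO (-0.22 ± 0.10). Transgelin, TAGLN, a smooth muscle actin-binding protein, rose with siUHRF1 from 1.37, 1.97 and 1.47 CPM to 3.33, 3.31 and 3.41, a change of 1.13 ± 0.18 (SE; adjusted p = 1.81e-07). It fell with the ASO from 4.85 and 5.27 CPM to 2.97 and 2.44, a change of -0.84 ± 0.16 (SE; adjusted p = 0.00244). Neither pair of groups overlapped. In the clone TAGLN rose by 0.51 ± 0.14, which upper quartile scaling reduced to 0.233 (adjusted p = 0.130). Smooth muscle actin, ACTA2, fell in the clone (-0.90 ± 0.09), rose with si1SMYD3 (0.46 ± 0.12) and was called lower with siUHRF1 (-0.41 ± 0.17), a call lost with DESeq2 (adjusted p = 0.0864) and without siNC replicate 3 (0.151), siUHRF1 replicate 2 (0.0599) or siUHRF1 replicate 3 (0.116). ACTA2 shares exon sequence with FAS on the other strand, TAGLN with PCSK7 and TGM2 with RPRD1B, and whether the counting used strand is not given in the sources used here.

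Both TGF-beta ligands rose in the clone, TGFB1 by 0.57 ± 0.07 and TGFB2 by 0.71 ± 0.06. TGFB1 rose with si1SMYD3 from 62.8, 76.2 and 64.1 CPM to 102, 142 and 133, a change of 1.03 ± 0.14 (SE; adjusted p = 0.0001). TGFB2 went the other way there and fell by 0.46 ± 0.11. Its largest change was with siUHRF1, from 31.1, 33.6 and 30.5 CPM to 117, 117 and 114, a change of 1.94 ± 0.05 (SE; adjusted p = 2.03e-35). The ASO libraries had 22.0 and 20.4 CPM and the PBS libraries 39.2 and 33.6, a change of -0.71 ± 0.08 (SE; adjusted p = 5.71e-05). TGFB2 was thus called lower by both SMYD3 knockdowns and higher in the clone and with siUHRF1, with no overlap in any of the 4. The knockout effect on TGFB2 exceeded the siRNA effect by 1.06 ± 0.12 (SE; adjusted p = 1.64e-07).

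The 5 YAP/TEAD targets did not move as a unit: 3 were called higher and 2 lower in the clone, 2 and none with si1SMYD3, 1 and 2 with the ASO, and 3 and 1 with siUHRF1. All 5 were called higher with si1SMYD3 when siNC replicate 3 was left out, and also with DESeq2. ANKRD1, a muscle ankyrin repeat protein used as a YAP readout, rose in the clone from 729.6, 886 and 758 normalized counts to 4076, 4047 and 3725, a change of 2.32 ± 0.07 (SE; adjusted p = 1.63e-13). With siUHRF1 it rose from 172, 179 and 176 CPM to 647, 695 and 659.9, a change of 2.00 ± 0.05 (SE; adjusted p = 1.29e-37). With the ASO it rose from 57.7 and 58.01 CPM to 82.6 and 85.9, a change of 0.61 ± 0.06 (SE; adjusted p = 1.27e-05). Depleted libraries lay above controls in each. With si1SMYD3 the groups overlapped and the change was 0.33 ± 0.15 (SE; adjusted p = 0.0931).

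CCN2, a secreted partner of TGF-beta and YAP's best known target, fell where ANKRD1 rose in the clone and with the ASO. It fell in the clone from 2127, 1959.8 and 1941 normalized counts to 951, 887 and 871, a change of -1.15 ± 0.05 (SE; adjusted p = 1.98e-11). With the ASO it fell from 171 and 188 CPM to 104 and 101.0, a change of -0.74 ± 0.06 (SE; adjusted p = 5.13e-06). Groups did not overlap in either. It was not called with si1SMYD3 (0.31 ± 0.14) or siUHRF1 (-0.10 ± 0.05). The siRNA effect on CCN2 exceeded the ASO effect by 1.05 ± 0.21 (SE; adjusted p = 0.000779).

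CCN1 rose with siUHRF1 from 2434, 2705 and 2525 CPM to 5294, 5460.1 and 5260.2, a change of 1.13 ± 0.05 (SE; adjusted p = 5.32e-26). It was called lower with the ASO (-0.25 ± 0.06; adjusted p = 0.0944 without PBS replicate 2) and, by a small amount and with overlapping groups, in the clone (-0.10 ± 0.04). The clone's call was lost without clone replicate 2 (adjusted p = 0.0708), clone replicate 3 (0.0818) or parental replicate 2 (0.184). AMOTL2, an angiomotin that binds YAP and is also its target, was called higher in 3 comparisons. The clone read 8951, 8968 and 9097 normalized counts against 4609, 4331 and 4287, a change of 1.03 ± 0.04 (SE; adjusted p = 8.64e-13). With si1SMYD3 it read 439, 490.1 and 487 CPM against 229, 245 and 190.4 (1.22 ± 0.10 (SE; adjusted p = 2.92e-07)). With siUHRF1 it read 545, 521 and 519.8 CPM against 221, 219 and 215 (1.35 ± 0.05 (SE; adjusted p = 2.6e-30)). All 3 pairs of groups were separate, and the ASO change was -0.03 ± 0.06 (SE; adjusted p = 0.726).

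AXL, a receptor tyrosine kinase and YAP target, and CD44, the hyaluronan receptor, were called higher in the clone and lower with siUHRF1. AXL measured 23787, 23792 and 24037 normalized counts in the clone and 7246, 7493 and 6967 in parental cells, a change of 1.72 ± 0.03 (SE; adjusted p = 1.88e-15). CD44 measured 41549.6, 43375 and 41033 and 11319, 11982 and 11602, a change of 1.85 ± 0.03 (SE; adjusted p = 9.89e-16). Neither overlapped. With siUHRF1 the changes were -0.89 ± 0.05 for AXL and -0.32 ± 0.05 for CD44, and with si1SMYD3 AXL rose by 0.56 ± 0.14 while CD44 was not called (0.16 ± 0.08).

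**Figure D4:**
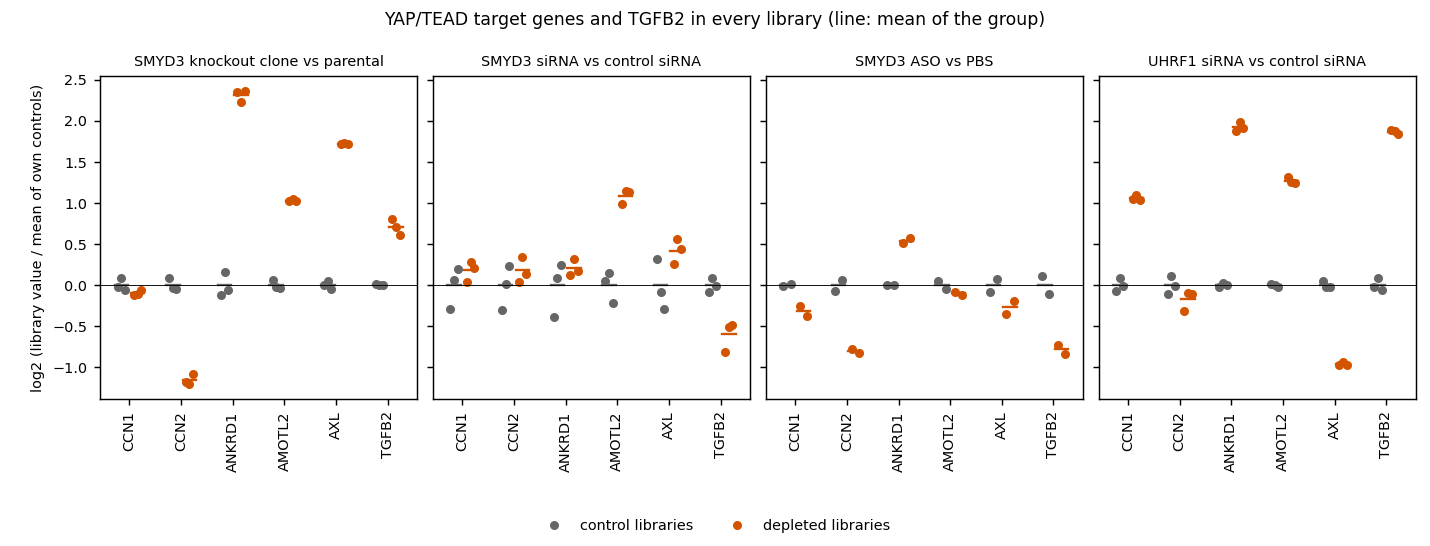
Value of each library divided by the mean of its own controls, on a log2 axis, for the YAP/TEAD target genes and TGFB2; grey points are control libraries, orange points depleted libraries, and short lines group means. ANKRD1 is above and CCN2 below the controls in the clone and with the ASO, and TGFB2 is below them with both SMYD3 knockdowns.

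Set side by side, 13 of the 35 genes tested in both were called the same way in the clone and with the SMYD3 siRNA, which is 37.1% beside 27.8% of 16047 genes. Another 7, or 20% beside 17.7%, were called in opposite ways: ZEB1, ZEB2, SPARC, COL1A1, COL12A1, ACTA2 and TGFB2. Of the 34 genes tested in all 4 comparisons, 22 were called higher in at least 1 and lower in at least 1, which is 64.7% beside 47.6% of 13832 genes. Another 7, or 20.6% beside 16%, were called in 3 or more and always the same way: CDH1, SNAI1, FN1, TNC, ANKRD1 and AMOTL2 higher, and COL5A1 lower. CDH1 alone was called the same way in all 4, which is 2.94% of the 34 beside 2.67% of all genes, so near the background. The knockout and siRNA effects differed for 32 of 36 genes tested, beside 73.6% of 17035 genes. The knockout effect was the higher one in 19 (34.9% of all genes) and the lower one in 13 (38.6%). These differences used CPM with mitochondrial reads in the totals, and the part of that in the split was not tested. The SMYD3 siRNA and UHRF1 siRNA effects differed for 26 of the 35 other than VCAN and COL3A1, beside 55% of 16987 genes; the SMYD3 siRNA effect was the higher one in 16 (28.1% of all genes) and the lower one in 10 (26.8%).

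The 2 knockdown agents against SMYD3, both read after 72 h, differed for 22 of the 35 genes other than VCAN and COL3A1, beside 38.1% of 16987 genes. In 20 of the 22 the siRNA effect was the higher one and in 2 the lower one, beside 18.6% and 19.5% of all genes tested. Differences of at least 1 in size were called for 5, beside 7.62% of all genes. LOX differed by 2.15 ± 0.33 (SE; adjusted p = 7.45e-06), AMOTL2 by 1.26 ± 0.12 (SE; adjusted p = 2.41e-09) and CDH1 by 1.08 ± 0.11 (SE; adjusted p = 1.87e-08). The 2 differences the other way were SNAI1, at -0.84 ± 0.15 (SE; adjusted p = 5.57e-05), and vimentin, at -0.66 ± 0.20 (SE; adjusted p = 0.013). Genes with no difference called included SNAI2 at 0.02 ± 0.14 (SE; adjusted p = 0.919) and FLNA at 0.07 ± 0.17 (SE; adjusted p = 0.796). SMYD3 itself was reduced by similar amounts, -2.41 and -2.52, while UHRF1 fell by 1.68 with the siRNA and rose by 0.36 with the ASO; the part of UHRF1 in these differences was not tested.

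**Figure D5:**
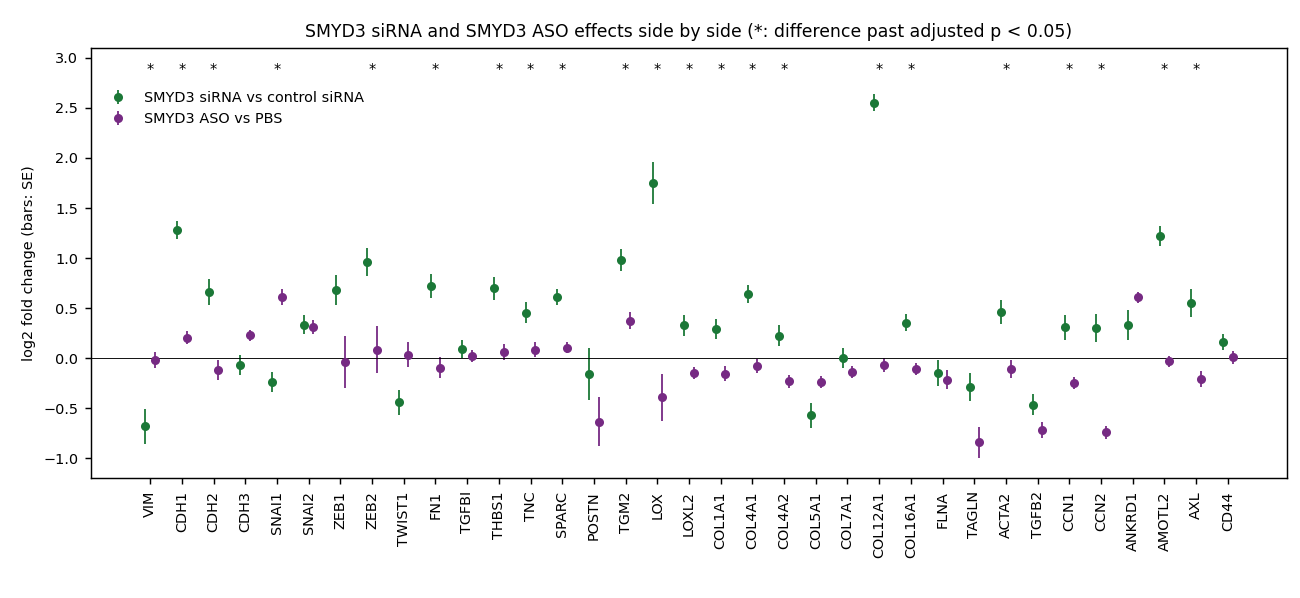
Log2 fold change of each gene with the SMYD3 siRNA (green) and the SMYD3 ASO (purple), with the SE of the fit as bars, for genes tested in both tables. Stars mark the 22 genes whose 2 effects differed at an adjusted p under 0.05, and in most of these the green point is the higher one.

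Other genes of the same pathways were read from lists, by counts and medians alone, and their counts stand beside 42.1% of all genes higher and 42.6% lower in the clone, 24.2% and 24.4% with si1SMYD3, 11.3% and 10.3% with the ASO, and 32% and 32.7% with siUHRF1. In the clone, 16 of 20 Hippo pathway and TEAD genes rose and 4 fell. Their median of 0.59 went to 0.32 with upper quartile scaling, which took the median over all genes from -0.02 to -0.305. They included WWTR1, which codes for TAZ, at 1.77 ± 0.04, TEAD4 at 1.49 ± 0.07 and WWC1 at 1.25 ± 0.04. With siUHRF1 13 rose and 5 fell, with AMOT at 0.99 ± 0.12, TEAD4 at -0.95 ± 0.08 and the kinase STK3 at 0.85 ± 0.05. With si1SMYD3 10 rose and 6 fell, led by AMOT at 1.29 ± 0.10. With the ASO none rose and 6 fell (3 by DESeq2; without ASO replicate 1, 1 rose), among them AMOT at -0.52 ± 0.13 and NF2 at -0.43 ± 0.06. AMOT was therefore higher with both siRNAs and lower with the ASO and in the clone (-1.07 ± 0.16).

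Of 14 further YAP/TAZ targets tested, 10 rose and 4 fell in the clone, 8 and 3 with si1SMYD3, 6 and 2 with the ASO (4 fell without ASO replicate 2), and 7 and 5 with siUHRF1. NT5E, an ectoenzyme that makes adenosine, rose in the clone (2.77 ± 0.08) and with the ASO (0.51 ± 0.08), and fell with si1SMYD3 (-1.49 ± 0.09) and siUHRF1 (-2.42 ± 0.05). IGFBP3, which binds insulin-like growth factors, showed the reverse in 3 of them: -2.81 ± 0.06 in the clone, 1.32 ± 0.09 with si1SMYD3 and 2.42 ± 0.06 with siUHRF1.

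For the TGF-beta receptors, SMADs and targets, 11 of 21 rose and 7 fell in the clone, with TGFBR2 at 2.05 ± 0.05 and SMAD6 at -1.72 ± 0.11. The median of this list was 0.14 and turned to -0.14 with upper quartile scaling, under which 7 rose. TGFBR3 rose with si1SMYD3 (1.14 ± 0.09) and fell with siUHRF1 (-1.60 ± 0.08) and the ASO (-0.39 ± 0.08). Of 23 genes for epithelial junctions, splicing and transcription factors, 18 rose in the clone, while 1 fell (5 with upper quartile scaling). CTNNB1 was at 1.70 ± 0.03. With siUHRF1 14 rose and 5 fell, with CLDN4 at 1.43 ± 0.05 and JUP at 1.19 ± 0.05. With si1SMYD3 7 rose and 6 fell, OVOL2, an epithelial repressor of EMT, at -2.11 ± 0.16.

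Genes for collagen processing and fibre assembly rose in 13 of 21 and fell in 4 with si1SMYD3, with a median of 0.48; FBN1, fibrillin, was at 1.29 ± 0.10 and LOXL1 at -1.65 ± 0.20. COL8A1 rose with si1SMYD3 (1.76 ± 0.14) and fell with siUHRF1 (-1.86 ± 0.16). Its mean was 53.3 normalized counts in parental cells and 1.24 in the clone. Only the parental libraries, where COL8A1 is high, carried it past the filter of the knockout table, so no test is given there. LOXL4 fell in the clone (-3.92 ± 0.18), where 10 of 21 rose and 8 fell, with COL8A1 counted among the 8. Actin and focal adhesion genes numbered 18 tested in the clone, where 14 rose and 3 fell (5 with upper quartile scaling), with FLNC at 2.19 ± 0.05 and ACTN1 at 1.63 ± 0.03. With siUHRF1 13 of 19 rose and 3 fell. With si1SMYD3 2 of 18 rose (1 without siNC replicate 3, si1SMYD3 replicate 2 or si1SMYD3 replicate 3, and 5 without si1SMYD3 replicate 1) and 6 fell, with CNN2 at -1.47 ± 0.09 and TPM1 at -0.89 ± 0.11. With the ASO 4 of 19 fell (2 without PBS replicate 2) and none rose, led by SRF, a factor that drives actin genes, at -0.61 ± 0.06.

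The squamous label was checked against 7 epithelial markers, all of which were tested in each table. Their summed level was 49591 to 49773 normalized counts in parental cells and 61755 to 64176 in the clone, and in CPM it was 1406 to 1497 with siNC and 1218 to 1299 with si1SMYD3, 2175 to 2176 with PBS and 2316 to 2476 with the ASO, and 1810 to 1858 with siNC and 1726 to 1787 with siUHRF1. Of 9 fibroblast markers, 3 or 4 passed the filter in each table, with PRRX1 at 0 in every library of the 3 count tables. Their summed level went from 510 to 555 normalized counts in parental cells down to 133 to 165 in the clone. Of the 4 tested there 1 was called higher and 3 lower, with a median of -0.69, and LUM changed by -4.45 ± 0.14. The sum went from 56.9 to 61.8 CPM up to 115 to 134 with si1SMYD3, where 2 of 4 were called higher and 0 lower. LUM, a collagen-binding proteoglycan, changed there by 1.25 ± 0.09. The sum was 46.5 to 47.1 with PBS and 33.8 to 38.5 with the ASO, where 0 of 3 were called higher and 2 lower. It was 37.5 to 39.5 with siNC and 24.5 to 26.5 with siUHRF1, where 0 of 4 were called higher and 1 lower. COL1A1, COL12A1 and COL3A1 are known in fibroblasts too, and the part of these markers in their changes was not tested. Of 6 endothelial markers 2 to 4 were tested, with CLDN5 at 0 in the count tables. Their sum was 147 to 183 normalized counts in parental cells and 36.7 to 63.2 in the clone, 13.7 to 16.2 CPM with siNC and 7.21 to 7.67 with si1SMYD3, 9.27 to 9.71 with PBS and 9.29 to 9.32 with the ASO, and 8.68 to 9.38 with siNC and 22.1 to 23.4 with siUHRF1. Of 7 leukocyte markers 3 or 4 were tested. Their sum was 13.4 to 15.4 CPM with siNC and 14.7 to 16.8 with si1SMYD3, 7.11 to 8.51 with PBS and 8.09 to 8.91 with the ASO, and 4.11 to 5.02 with siNC and 11.03 to 12.2 with siUHRF1. In the knockout table it was 1455 to 1536 normalized counts in parental cells and 10323 to 10929 in the clone, nearly all CD68 (2.98 ± 0.04), a lysosomal protein. The part of these markers in the changes above was not tested.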

How the data were processed

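The series measured RNA in 22 libraries. Whole-number counts per gene were deposited by the authors for both siRNA experiments and for the ASO. The knockout table holds a deposited signal, in which each library's gene counts carry a single scaling factor; whole reads were recovered for 100% of values within 0.01. The submitters' processing notes name the hg38 build, bcl2fastq and Bowtie; which tool counted, with which strand setting and annotation, is not given in the sources used here.

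Counts were tested with edgeR 4.0.16 (filterByExpr, TMM, robust quasi-likelihood F-test, two-sided). The knockout signal went into limma 3.58.1, trended and robust, as log2(value + 1), which understates changes of low genes; genes had to reach 10 in at least 3 libraries (2 where a library was left out). Differences between effects used edgeR on 16 count libraries joined by symbol. Knockout minus siRNA differences used limma on log2(CPM + 1), which understates differences of low genes. P-values were adjusted by Benjamini-Hochberg over all genes tested. CPM used total reads in genes, while edgeR fold changes used TMM-scaled totals, so ratios of the printed CPM differ slightly from the fitted changes. Knockout fold changes used the deposited scaling. Knockout minus siRNA differences used CPM without TMM, with mitochondrial reads in the totals. SMYD3 siRNA lines without a symbol (23588) were named by Ensembl identifier where possible. Lengths came from the deposited ASO table, for all 4 tables. Chromosomes and exon overlaps came from GENCODE release 29 on GRCh38, and promoters from RefSeq. A level per length left out mitochondrial genes.

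Members and lists were chosen with earlier results of these data known. Given in full were called members with an absolute log2 change of 1 or more, the most changed member of each role group and a few others chosen after their values were seen. From each list up to 3 of the most changed called genes were named. The reported fits have no block, although pairing by library number could not be decided in the SMYD3 siRNA and ASO tables. No 2 replicates agreed within sampling noise. The fits were tested on simulated data. R was 4.3.3, Python 3.11.15 and DESeq2, an alternative, 1.42.0. Other alternatives were scaling, filter, pseudocount, replicate block and leaving out each library. Some values of genes in the lists are not reported here.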

Additional observations from a re-analysis of the deposited data

Results flagged for a closer look

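The effects of the 2 agents against SMYD3 differed, by edgeR's test of the difference, for 22 genes, beside 38.1% of all genes tested. The values are the siRNA effect minus the ASO effect, on the log2 scale. Among cadherins and vimentin they were 1.08 for CDH1, 0.79 for CDH2 and -0.66 for VIM. Among EMT factors they were 0.88 for ZEB2 and -0.84 for SNAI1. Matrix glycoproteins gave 0.82 for FN1, 0.64 for THBS1, 0.51 for SPARC and 0.38 for TNC. Cross-linking enzymes gave 2.15 for LOX, 0.61 for TGM2 and 0.48 for LOXL2. Collagens gave 2.62 for COL12A1, 0.72 for COL4A1, 0.47 for COL16A1, 0.46 for COL4A2 and 0.45 for COL1A1. ACTA2 gave 0.58, and the YAP/TEAD targets gave 1.26 for AMOTL2, 1.05 for CCN2, 0.77 for AXL and 0.56 for CCN1. Of these, TNC, VIM, ZEB2, ACTA2, COL4A2 and COL1A1 lost the call in at least 1 fit that left out a library: without ASO replicate 1, the adjusted p was 0.158 for TNC, 0.0772 for ZEB2 and 0.0566 for COL4A2, and without ASO replicate 2 it was 0.0599 for VIM, 0.116 for COL1A1 and 0.0776 for ACTA2. The agents also differ in chemistry, controls and table, and these cannot be told apart from one another.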

How the results depend on the processing

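The counts called over all members and over all genes stayed within 1.5 times under the alternatives run, except where values follow. The smaller counts by role group moved more in 42 of 720 combinations of fit, group and direction: the YAP/TEAD targets called higher with si1SMYD3 were 5 in place of 2 with DESeq2, with no filter, with the replicate block and without siNC replicate 3, and the collagens called lower in the clone were 5 in place of 3 with upper quartile scaling. With DESeq2, the ASO comparison called 1313 genes higher and 964 lower, in place of 2068 and 1880. Leaving out 1 library, the ASO called 3 (without PBS replicate 2) to 11 (without ASO replicate 2) members lower, in place of 6. The siRNA effect was below the ASO effect for 2 to 5 members in the fits that left out 1 library, in place of 2, for 4 with upper quartile factors and for 5 with no filter. In the knockout table, scaling the recovered reads by upper quartiles took the median over all genes from -0.02 to -0.305, and turned VIM to -0.254, SNAI2 to -0.0967 and COL5A1 to -0.193; the cause was not tested.

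Same-numbered libraries correlated at -0.09 to 0.05 in the knockout table and -0.04 to 0.03 in the UHRF1 table. In the SMYD3 siRNA table they correlated at -0.04 to 0.32, and differently numbered libraries at -0.41 to 0.24. The ASO value was 0.23. With 2 libraries a group it is a single value, and differently numbered pairs take its negative. The reported fits have no block, and pairing in the SMYD3 siRNA and ASO tables could not be decided from these values. With the number as a block, the ASO comparison called 3477 genes higher and 3296 lower, and 13 members lower. The siRNA effect was then below the ASO effect for 4 members.

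With 2 or 3 libraries a group, 1 clone and 1 reagent per knockdown, small changes can hang on a single library, and VCAN, COL3A1 and POSTN are limited by depth.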

Other observations

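Keratins and TP63, which mark squamous epithelium, also changed in these comparisons. KRT6A, a keratin of activated keratinocytes, had a mean of 32.2 normalized counts in parental cells and 1417 in the clone, a log2 change of 5.42 ± 0.11 (SE, limma), and it rose with the ASO from 3.20 to 7.86 CPM (1.36 ± 0.15, edgeR). KRT17 rose with siUHRF1 from 32.9 to 366 CPM (3.55 ± 0.06) and in the clone by 1.00 ± 0.04. TP63, a factor of the basal layer, rose with si1SMYD3 by 0.74 ± 0.09. The values printed here are all rises, and the markers that fell are not named. The median change of the 7 epithelial markers was 0.95 in the clone, 0.20 with the ASO, -0.08 with si1SMYD3 and -0.16 with siUHRF1. Of the 7 epithelial markers, 5 rose and 1 fell in the clone (3 fell with upper quartile scaling), 3 rose with the ASO (5 with no filter), and 2 rose and 3 fell with each siRNA (1 rose with si1SMYD3 without siNC replicate 1).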
